A study of Arabidopsis thaliana with 12 samples.

Results

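The data described here are the transcript levels of wild-type (WT) Arabidopsis seedlings grown for 2 days in darkness, taken from the 3 WT libraries among the 12 libraries of the series. The 3 libraries were chosen by genotype label alone, and all 33602 loci of the count table were ranked by their mean level. The study set WT beside the pif3, pif145 and pifq mutants, which lack PIF3, the trio PIF1, PIF4 and PIF5, or all of these phytochrome-interacting factors, with 3 libraries per genotype. Every WT sample was RNA of whole seedlings. Before the 2 days of true darkness, germination of the stratified seeds was started by 3 h under white light (21 °C), and 15 min of far-red light closed the light phase. The labels give no organ dissection, so root, hypocotyl and cotyledon are mixed, and a higher level cannot be told apart from more cells of the expressing kind. The protocol selected polyadenylated 3′-end fragments, and the study describes its replicates as biological.

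A seedling that germinates under the soil follows a programme called skotomorphogenesis. The hypocotyl elongates, the apical hook and closed cotyledons stay protected, the plastids remain etioplasts that store protochlorophyllide, and growth is paid for by oil and protein laid down in the seed. Fatty acids released from oil bodies are broken down in peroxisomes, and the glyoxylate cycle turns the product into precursors of sugar. The PIF proteins maintain this state until light-activated phytochrome removes them.

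The WT libraries held 26073668, 36860574 and 34201755 counts for replicates 1, 2 and 3. Levels are given as CPM, the share of the library total in parts per 1000000, so 1 CPM stood for 26.1, 36.9 and 34.2 counts. Reads were counted in at most the last 500 bases of each transcript, so levels of different loci were compared without a division by transcript length. A locus was called detected when it had at least 1 CPM in each library. By this rule 14880 loci (44.3%) were detected, among them 14683 of the 26712 loci annotated as protein-coding (55.0%). The median level of the detected loci was 11.5 CPM. At the other end, 12082 loci had no count in any WT library.

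The counts were concentrated in few loci. The 100 highest loci of each library held 31.8%, 35.6% and 37.2% of its counts, and 50% of the counts lay in 350, 277 and 249 loci. Over the mean of the 3 libraries, 294 loci held 50% of the counts and 4206 held 90%. The 3 loci above 10000 CPM carried 12.5% of all counts, against 3.29% in the 7649 loci between 1 and 10 CPM. Replicate 1 was the least concentrated of the 3 libraries on each of these measures.

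LTP2 (AT2G38530, chromosome 2, positions 16128176 to 16129399 on the plus strand of TAIR10.1) was the highest locus in every library. It encodes a lipid transfer protein, a small secreted protein of the epidermal surface. LTP2 had 64169, 84008 and 89891 CPM in replicates 1, 2 and 3, a mean of 79356 ± 13477 CPM (SD, n = 3). It alone supplied 6.42%, 8.40% and 8.99% of the counts. LTP1, its neighbour in the same family, had 56.5, 39.0 and 48.6 CPM, and LTP5 had 347, 397 and 444 CPM, with LTP6 lower at a mean of 15.96 CPM. Every 36-base window at the 3′ end of LTP1 and LTP2 was unique to its locus in the reference transcripts, so reads of the pair were separable. LTP2 thus made up 99.4% of the level of the 6 lipid transfer loci listed.

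ICL (AT3G21720), which encodes isocitrate lyase of the glyoxylate cycle, had 13902, 26771 and 29961 CPM, with a mean of 23545 ± 8502 CPM (SD, n = 3). It stood at rank 3 in replicate 1 and at rank 2 in the other libraries. TIP1;2, a water channel of the vacuolar membrane, followed with 20897, 22776 and 24110 CPM. PIP1;3, a water channel of the plasma membrane, was the fourth locus in every library, at 8966, 9319 and 8512 CPM. The ranges of ICL and TIP1;2 overlapped, whereas PIP1;3 lay below the lowest value of either.

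**Figure D1:**
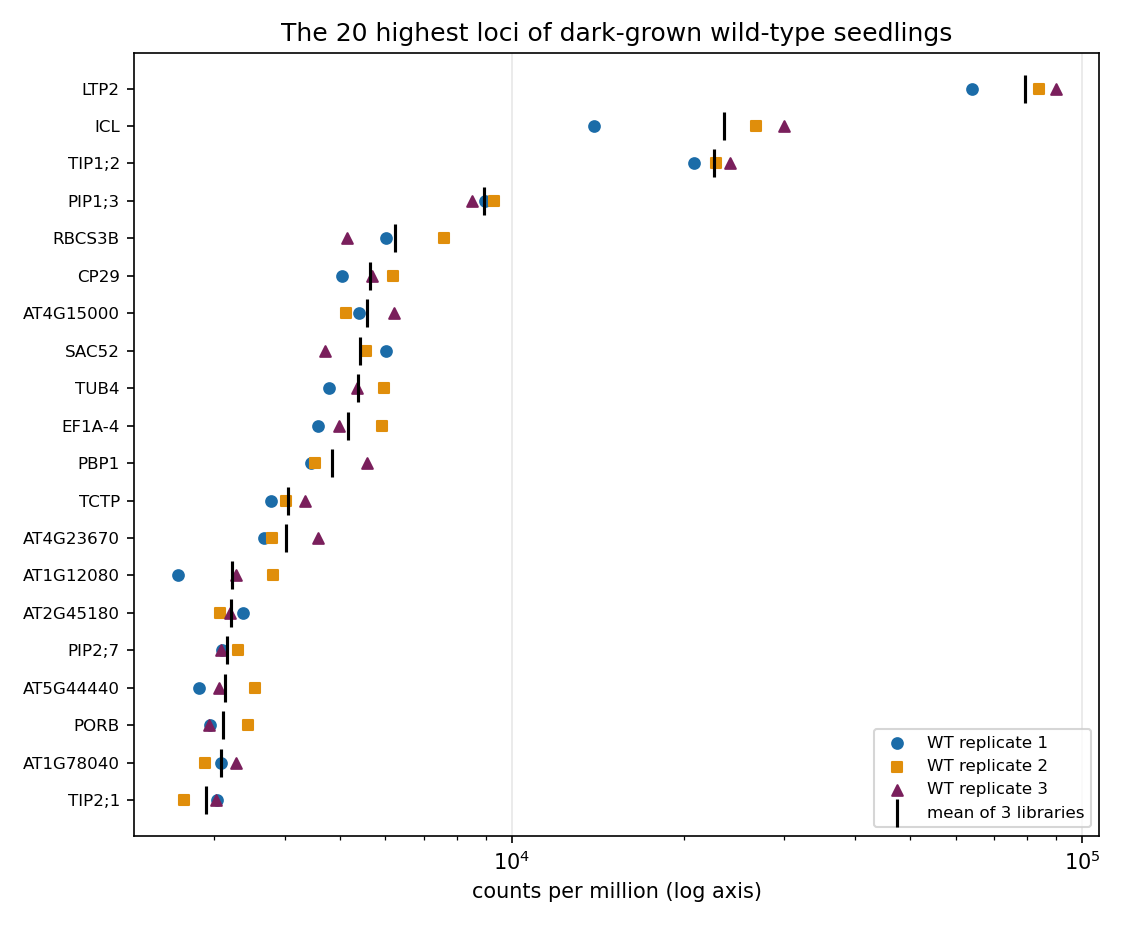
Level in CPM (log axis) of the 20 loci with the highest mean in WT seedlings, 1 symbol per library and a bar at the mean of the 3 libraries. LTP2 sits apart at 79356 CPM, ICL and TIP1;2 lie near 23545 and 22594 CPM, and the twentieth locus, TIP2;1, averages 2909 CPM.

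Below these 4 loci the levels descended in smaller steps. RBCS3B, a small subunit gene of Rubisco, had 6006, 7609 and 5128 CPM although the seedlings had no light for carbon fixation. CP29, an RNA-binding protein of the chloroplast, had 5042, 6178 and 5672 CPM. The ribosomal protein loci AT4G15000 (L27e family) and SAC52 (L16p/L10e family) averaged 5571 ± 570 and 5418 ± 656 CPM. TUB4, a β-tubulin, averaged 5365 ± 593 CPM, and the elongation factor locus EF1A-4 averaged 5151 ± 688 CPM (SD, n = 3 each). The values of these 6 loci overlapped.

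The remaining 10 of the 20 highest loci lay between 2909 and 4842 CPM. PBP1, which binds the β-glucosidase PYK10 of endoplasmic reticulum bodies, averaged 4842 ± 631 CPM, and its lowest library (4436 CPM) lay above the highest of TCTP (4327 CPM). TCTP, the translationally controlled tumour protein, averaged 4041 ± 272 CPM and PORB, a protochlorophyllide oxidoreductase, 3113 ± 288 CPM. Further water channels in the set were PIP2;7 at 3169 ± 121 CPM and TIP2;1 at 2909 ± 212 CPM. The other 5 are annotated only by protein family, namely AT4G23670 (polyketide cyclase and lipid transport family, 4012 CPM), AT1G12080 (vacuolar calcium-binding protein-like, 3231 CPM), AT2G45180 (lipid transfer and 2S albumin superfamily, 3215 CPM), AT5G44440 (berberine family, 3142 CPM) and AT1G78040 (Ole e 1 and extensin family, 3086 CPM). The plot of the 20 highest loci shows that replicate 1 gave the lowest value for 11 of the 20.

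Ribosomal proteins held the largest share of the groups tallied. The 353 loci annotated as structural constituents of the ribosome held 14.4%, 13.1% and 13.0% of the counts, and 183 of them were at 100 CPM or more. No single locus dominated the group, since its highest member, AT4G15000, made up 4.12% of it. Among the 100 highest protein-coding loci, 32 were ribosomal protein loci. A list of 8 translation factors and related loci held a mean of 1.23% of the counts. EF1A-4 made up 41.8% of it, ahead of TCTP, EF1A-3 at 922 ± 146 CPM and EF2 at 845 ± 59.0 CPM. The list counts TCTP and is not complete, since the elongation factor locus eEF-1Bb1 (2678 CPM) and the initiation factor locus FBR12 (2572 CPM) are outside it. Histones held 1.06% over 50 loci, led by HTB4 at 2031 ± 144 CPM (SD, n = 3). Proteasome subunits held 0.469% over 43 loci, of which 42 were detected, and their highest member, ATS9, had 361 CPM.

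**Figure D2:**
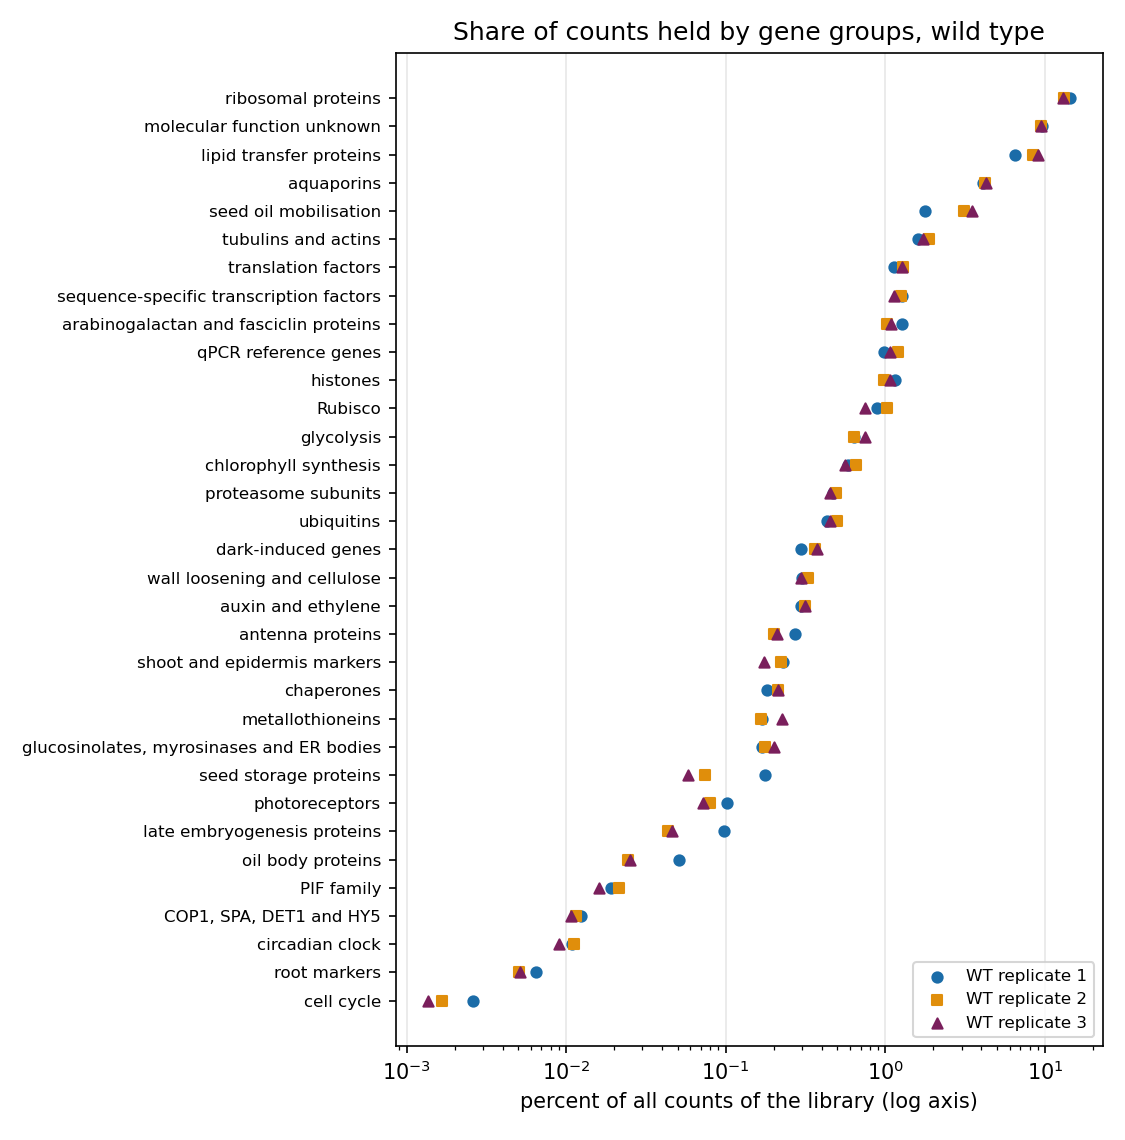
Share of all counts (percent of the library total, log axis) held by each gene group in the 3 WT libraries, 1 symbol per library. Ribosomal proteins lead at a mean of 13.5%, and the 3 symbols part most for seed storage, late embryogenesis and oil body proteins, where replicate 1 is the highest.

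Promoters of ribosomal protein genes in plants often carry site II elements and telo boxes, short motifs tied to expression in growing cells. In the 250 bases before the annotated start (TAIR10.1), the site II letters TGGGCC were searched on both strands, the telo box as AAACCCTA and the G-box as CACGTG on both strands as well, and the TATA box as TATAAA on the coding strand of the last 50 bases. The stretches below come from the 8 highest ribosomal protein loci and are shown because site II elements were frequent in this group. Each runs 5′ to 3′ toward the start on the coding strand, with site II elements (TGGGCC or its complement GGCCCA) or a telo box in capitals. AT4G34670 is not shown since its window held none of these letters, and UBQ6 shows a telo box in place of a site II element.
AT4G15000, plus strand, chr4:8571743-8571802: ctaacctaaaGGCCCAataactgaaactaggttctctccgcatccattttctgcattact
SAC52, plus strand, chr1:4888054-4888113: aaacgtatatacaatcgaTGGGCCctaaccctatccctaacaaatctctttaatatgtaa
AT3G49910, plus strand, chr3:18504104-18504163: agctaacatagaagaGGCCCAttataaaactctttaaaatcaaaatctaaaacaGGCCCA
UBQ6, plus strand, chr2:19344575-19344634: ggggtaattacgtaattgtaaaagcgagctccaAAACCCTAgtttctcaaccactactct
AT1G01100, minus strand, chr1:51258-51317: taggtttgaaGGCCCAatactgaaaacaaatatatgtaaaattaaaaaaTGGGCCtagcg
AT3G09200, minus strand, chr3:2825242-2825301: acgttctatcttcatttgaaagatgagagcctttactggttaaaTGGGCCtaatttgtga
EMB2296, plus strand, chr2:7837007-7837066: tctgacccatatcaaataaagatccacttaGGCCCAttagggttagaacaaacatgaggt

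These 7 loci were among the most abundant transcripts of the seedling. AT4G15000 had 5394, 5111 and 6208 CPM, SAC52 had 6001, 5545 and 4708 CPM, and the others averaged between 2147 (EMB2296) and 2775 CPM (AT3G49910). AT3G49910 carried 2 site II elements in its 250 bases and AT1G01100 carried 3, of which 2 fell in the stretch printed. The sequences describe what stands before the annotated start, and a match is not shown to be a bound site.

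The site II element became more frequent with transcript level. It was found before 6.80% of the protein-coding loci at 0 counts, 10.8% of those under 1 CPM, 16.3% from 1 to 10 CPM, 17.9% from 10 to 100 CPM, 21.9% from 100 to 1000 CPM and 33.6% of the 134 loci at 1000 CPM or more. Of the 183 ribosomal protein loci at 100 CPM or more, 55.2% held it, against 13.9% of all 26711 promoters of the same length. Among the 100 highest protein-coding loci, 22 of the 32 ribosomal protein loci held it, against 12 of the other 68. The telo box was found before 17.5% of those 183 ribosomal protein loci, against 4.44% of all promoters. The G-box, the sequence that PIF proteins bind, was found before 3.85% of the loci at 0 counts, 6.36% of those under 1 CPM, 7.52% from 1 to 10 CPM, 8.17% from 10 to 100 CPM, 6.67% from 100 to 1000 CPM and 6.72% at 1000 CPM or more, against 6.58% over all promoters. The TATA letters were found in 17.2% of the loci at 1000 CPM or more, against 11.2% of all. Among the 100 highest protein-coding loci, 10 of the 32 ribosomal protein loci held them, against 8 of the other 68 (11.8%). Annotated starts are the outermost of each gene, so a TATA box of a start further inside lies beyond the window searched.

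**Figure D3:**
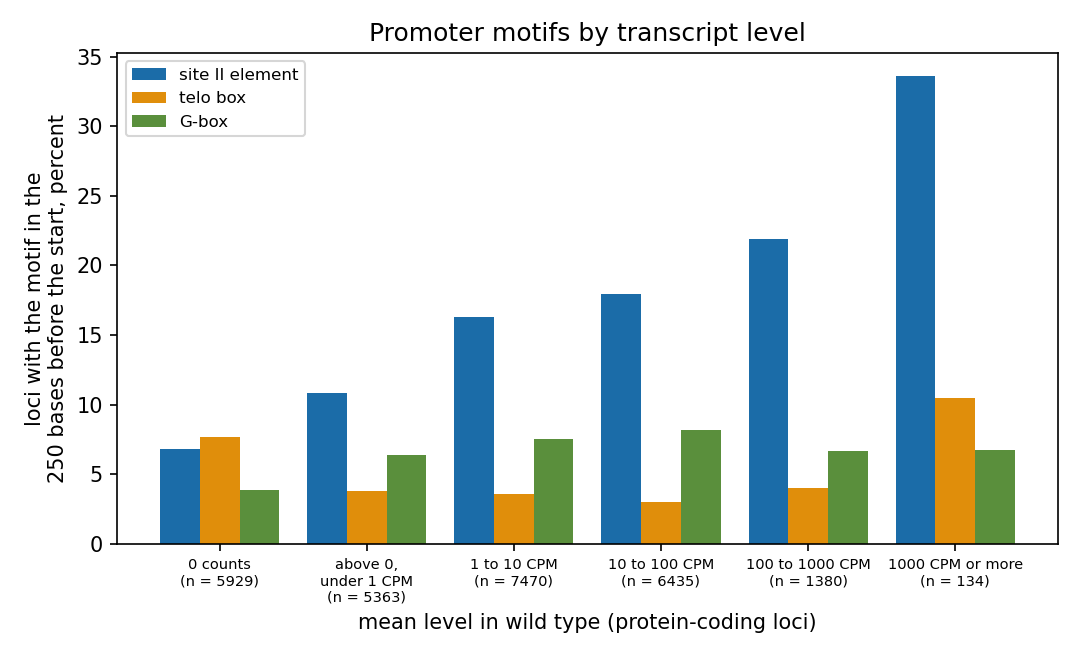
Share of protein-coding loci (percent, vertical axis from 0) with a site II element, a telo box or a G-box in the 250 bases before the annotated start, by mean level in WT. The site II bars climb from 6.80% at 0 counts to 33.6% at 1000 CPM or more, while the G-box bars stay between 3.85% and 8.17%.

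Transcript length was compared by level as well. The median transcript length was 1219.5 bases for the 100 highest protein-coding loci, against 1506 bases for all protein-coding loci, and the median protein had 215.5 residues, against 354. Loci at 0 counts were shorter still in the annotation, with medians of 839 bases and 210 residues. All 36-base windows of the counted 3′ end were unique for 80.0% of the 100 highest loci, against 86.5% of all, and none of these 100 had under 50% unique windows. The level of a locus with shared windows is a lower limit because reads common to several transcripts were not counted. This concerns tubulins and ubiquitins in particular, such as UBQ10, at 1651 CPM with 85.6% unique windows, and TUA3, at 1258 CPM with 82.8%.

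Water channels held an even share of the counts. The 17 aquaporin loci held 4.11%, 4.197% and 4.29% of the counts, a CV (SD over mean) of 2.13% between libraries, and all 17 were detected. TIP1;2 made up 53.8% of the group. TIP1;1 had 1909, 1297 and 1320 CPM, PIP1;2 had 784, 747 and 775 CPM, and PIP2;6 had 813, 732 and 917 CPM. The seed-specific members TIP3;1 and TIP3;2 were low and uneven, at 27.8, 9.93 and 10.3 CPM and at 49.9, 16.2 and 15.7 CPM. PIP2;1 was high in replicate 1 as well, with 737 CPM, against 319 and 356 CPM in the others.

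Tubulin and actin loci held a larger share of the counts than the listed genes of wall loosening and cellulose. The 18 tubulin and actin loci held 1.74 ± 0.131% of the counts (SD, n = 3), and 15 of them were at 100 CPM or more. TUB4 was followed by ACT2 at 1767 ± 318 CPM, TUB6 at 1746 ± 163 CPM and TUA6 at 1358 ± 67.7 CPM. Arabinogalactan and fasciclin proteins, which are glycoproteins of the cell surface, held 1.12% over 57 loci, with AGP9 at 3599, 2355 and 2657 CPM and AGP4 at 2573, 2295 and 2342 CPM. In the wall loosening and cellulose list, all 14 loci were detected and together held 0.307 ± 0.0164%. COB, needed for oriented cellulose deposition, was its highest member at 413, 609 and 737 CPM, followed by the xyloglucan enzyme gene XTH15 at 453, 554 and 520 CPM. The endoglucanase gene KOR1 averaged 455 ± 104 CPM and the cellulose synthase gene CESA3 380 ± 50.9 CPM. Expansin genes of the list averaged less, from EXPA2 at 5.13 CPM to EXPA11 at 122 CPM.

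The shoot epidermis was well represented among cell markers. PDF1, which is expressed in the outermost cell layer, had 2156, 2066 and 1581 CPM, and ATML1, an epidermal homeobox gene, had 90.6, 111 and 94.0 CPM. AS1, a leaf regulator, averaged 30.8 CPM and APL, a phloem regulator, 8.37 CPM, while STM, a shoot meristem gene, averaged 3.68 CPM and WUS, of the meristem centre, 0.0346 CPM. Root markers lay below PDF1 and ATML1. SHR had 40.5, 32.04 and 35.6 CPM, above AS1 (29.4, 27.5 and 35.3 CPM) in each library. SCR, at 19.6, 11.8 and 9.88 CPM, and the root hair expansin EXPA7, at 2.95, 5.53 and 4.18 CPM, lay below AS1. GL2, a regulator of root hair pattern, averaged 0.948 CPM, and PLT1 and WOX5 of the root tip lay under 1 CPM. Of the root list only SHR and SCR averaged above 10 CPM, while GL2, PLT1 and WOX5 averaged under 1 CPM. The presence of root thus rests on the label of whole seedlings and not on these markers alone. Of 5 flower organ markers, AP1 and AG had 0 counts in every library, AP3 had 1 count in all, SEP3 stayed under 0.1 CPM, and PI had 1.73, 1.14 and 1.34 CPM.

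Reserve mobilisation was led by 1 gene. The 15 loci of seed oil mobilisation held 1.77%, 3.11% and 3.50% of the counts, and ICL supplied 84.4% of this. MLS, malate synthase of the same cycle, had 1806, 1995 and 2649 CPM, and PCK1, which makes phosphoenolpyruvate for sugar synthesis, had 804, 958 and 1184 CPM. All 3 genes were lowest in replicate 1. Enzymes of fatty acid breakdown were lower, with the acyl-CoA oxidases ACX1 at 277, 326 and 247 CPM and ACX2 at 262, 256.05 and 254 CPM, the acyl-CoA synthetase LACS7 at 127 ± 9.82 CPM and the thiolase KAT2 at 71.6 ± 2.53 CPM (SD, n = 3 each). SDP1, the lipase that opens the pathway, averaged 21.4 CPM and the importer PXA1 28.2 CPM. PMDH1, a peroxisomal malate dehydrogenase, had 168, 335 and 249 CPM. CSY3, a peroxisomal citrate synthase, had 0 counts in all libraries, which allows at most 0.115, 0.0814 and 0.0877 CPM (3 counts, counting error only), whereas its relative CSY2 averaged 19.1 CPM.

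Glycolysis, with 9 loci, held 0.672 ± 0.0611% of the counts. GAPC1, a cytosolic glyceraldehyde phosphate dehydrogenase, had 2345, 2474 and 3317 CPM. PGK3 averaged 1193 ± 165 CPM and GAPC2 908 ± 161 CPM. The enolase gene ENO2 was the steadiest of the list, with 1011, 1030 and 987 CPM.

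Transcripts of seed maturation genes were found in the seedlings at uneven levels. Whether they were carried over from the seed or made in the seedling was not tested. CRA1, a cruciferin storage globulin, had 1184, 551 and 376 CPM, and CRU3 had 330, 86.1 and 88.2 CPM, with CRU2 at a mean of 14.2 CPM. SESA5, a 2S albumin, had 205, 88.6 and 102 CPM, while SESA1 to SESA4 stayed under 4 CPM. Among oil body proteins, the oleosin OLEO2 had 218, 112 and 107 CPM and OLEO1 averaged 30.7 CPM. OLEO3, here AT3G01570 and not the locus that the study names OLEO3, had 207, 92.1 and 101 CPM. Among late embryogenesis proteins, EM6 had 273, 111 and 127 CPM, RAB18 had 240, 91.8 and 120 CPM, and M17 had 284, 108 and 73.6 CPM. Replicate 1 was the highest library for CRA1, CRU3, SESA5, OLEO2, OLEO3, EM6, RAB18 and M17. The summed shares were 0.175%, 0.0742% and 0.0582% for the 8 storage protein loci, 0.0510%, 0.0244% and 0.0250% for the 7 oil body loci and 0.0971%, 0.0434% and 0.0459% for the 8 late embryogenesis loci. Without replicate 1 the mean share of storage proteins was 0.0662%, against 0.102% with it. Some members differed less between libraries, among them LEA7 with 20.3, 18.9 and 19.1 CPM, LEA4-5 with 56.8, 59.1 and 63.8 CPM and the caleosin CLO3 with 11.01, 9.69 and 12.1 CPM, and replicate 3 was the highest for LEA4-5 and CLO3.

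Genes of chlorophyll synthesis were expressed in the dark, and the light-dependent step led them. PORB and PORA, whose products hold protochlorophyllide until light arrives, had 2950, 3446 and 2944 CPM and 1448, 1726 and 1377 CPM. PORC, the third form, had 114, 85.2 and 87.9 CPM, below every value of the other forms. CRD1, an oxidative cyclase subunit, averaged 607 ± 80.7 CPM, and CHLI1 and FLU, a magnesium chelatase subunit and a regulator of the pathway, averaged 152 ± 36.5 and 151 ± 9.67 CPM. HEMA1, at the pathway's entry, had 39.4, 51.0 and 58.7 CPM, and CAO, which makes chlorophyll b, had 14.0, 9.74 and 7.37 CPM. All 11 loci of the list were detected, and together they held 0.597 ± 0.0528% of the counts.

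Rubisco and antenna genes differed in level within each family. The 5 Rubisco loci held 0.887 ± 0.139% of the counts, of which RBCS3B made up 70.4%. RBCS1A averaged 1690 ± 218 CPM, RBCS2B 336 ± 82.7 CPM and RBCS1B 144 ± 21.8 CPM, and RCA, the Rubisco activase, 453 ± 27.5 CPM (SD, n = 3 each). The 17 antenna loci held 0.227 ± 0.0375%. LHCA4, of photosystem I, was the highest with 906, 664 and 686 CPM, followed by LHCB5 with 449, 300 and 315.7 CPM, LHCB4.1 with 228, 232 and 213 CPM and LHCB6 with 210, 143 and 217 CPM. The major antenna genes were lower, with LHCB1.5 (82.6% unique windows) at 207, 141 and 123 CPM and LHCB1.1 at 13.6, 3.91 and 4.15 CPM. All 14 antenna loci at 10 CPM or more were higher in replicate 1 than the mean of the other libraries, against 65.3% of all 8005 loci at that level.

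PHYA, the photoreceptor of far-red and very weak light, was the highest of 13 photoreceptor loci, with 425, 372 and 381 CPM. PHOT1, a blue light receptor of phototropism, was next with 371, 221 and 143 CPM, and its replicate 1 value lay just under the lowest value of PHYA. The cryptochrome genes CRY1 and CRY2 had 48.9, 45.9 and 52.1 CPM and 43.7, 35.9 and 34.5 CPM, and the UV-B receptor gene UVR8 had 46.1, 48.5 and 39.6 CPM, so that UVR8 overlapped both cryptochromes, which did not overlap each other. ZTL averaged 32.9 ± 7.12 CPM and LKP2 12.3 ± 1.95 CPM, and FKF1, the third member of that clock-linked family, had 0.575, 1.06 and 0.965 CPM. Of the other phytochromes, PHYB had 12.5, 17.7 and 16.6 CPM, PHYC 11.4, 6.32 and 6.75 CPM, PHYE 2.88, 2.03 and 1.43 CPM and PHYD 0.920, 0.597 and 0.789 CPM. PHOT2 had 3.72, 4.097 and 4.41 CPM. PHYA thus exceeded every other phytochrome gene in each library.

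Within the PIF family, PIF3 had 62.2, 83.0 and 51.9 CPM, HFR1 had 59.3, 52.0 and 48.5 CPM and PIL1 had 44.2, 60.2 and 45.3 CPM, and the ranges of these 3 overlapped. HFR1 and PIL1 encode related factors known for their part in light and shade responses. PIF1 followed with 12.6, 9.93 and 8.89 CPM, below all values of the first 3. PIF6 had 5.29, 3.91 and 2.81 CPM and PIF4 had 6.33, 2.93 and 1.696 CPM, with overlapping ranges. PIF5 had 1.496, 1.09 and 1.46 CPM, below every value of PIF4 and PIF6, and PIF8, at 0.614, 2.41 and 0.731 CPM, overlapped PIF5. PIF7 had 0 counts in every library, with the same limits as for CSY3 above, although all windows of its 3′ end were unique. As a group the 9 loci held 0.0190% of the counts.

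Regulators that act beside the PIFs were also at low levels. FHY1, which carries phytochrome A into the nucleus, was the highest of its list at 61.4, 61.8 and 67.3 CPM. SPA2, a partner of the ubiquitin ligase COP1, averaged 13.2 CPM and COP1 itself 5.88 CPM, and HY5, the light-response factor that COP1 removes, had 7.25, 8.84 and 7.25 CPM. FHY3, a transcription factor of phytochrome A signalling, had 21.6, 13.1 and 10.3 CPM. The 10 clock loci held 0.0104% of the counts, led by CCA1 at 27.7, 22.4 and 12.3 CPM and LHY at 18.3, 24.04 and 18.8 CPM, ahead of GI and PRR7 at 17.4 and 16.6 CPM. PRR9 had 0 counts, but only 9.89% of its windows were unique, so its reads would mostly have gone uncounted. Annotated sequence-specific transcription factors, 923 loci, held 1.22 ± 0.0677% of the counts in total, and 426 of them were detected. The annotation takes in HMGB2, a high mobility group protein, at 671 CPM and BTF3 at 602 CPM, its highest members. The share is thus that of the annotation class.

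Hormone and darkness genes ranged widely in level. The auxin repressor genes IAA17 and IAA7 averaged 595 ± 74.1 and 526 ± 31.7 CPM. EIN2, which passes on the ethylene signal, had 137, 135 and 174 CPM, and HLS1, needed for the apical hook, 14.2, 15.3 and 14.2 CPM. Among the 8 dark-induced genes, DRM1 had 1789, 2294 and 2256 CPM, DIN1 had 562, 822 and 1038 CPM, DIN6 (an asparagine synthetase gene) had 289, 209 and 156 CPM and DIN10 had 152, 108 and 92.1 CPM. Replicate 1 was the lowest library for DRM1 and DIN1 and the highest for DIN6 and DIN10.

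Other abundant housekeeping and defence transcripts were MT2B, a metallothionein, at 1251, 1330 and 1876 CPM, and MT2A at 427, 335 and 384 CPM, while MT3 averaged 1.94 CPM. MT1A was at 0 counts, but none of its windows was unique. BGLU23, the PYK10 β-glucosidase of endoplasmic reticulum bodies, had 1430, 1584 and 1858 CPM and made up 89.1% of its list. NAI2, which forms these bodies, had 154, 114 and 88.3 CPM and the myrosinase TGG1 87.7, 59.1 and 56.2 CPM. Of the glucosinolate synthesis genes listed, MAM1, CYP79F1 and CYP83A1 were at 0.115 CPM or less in every library, whereas SUR1 was detected at 8.44, 7.41 and 6.75 CPM. HSC70-1, a constitutive chaperone, averaged 1463 ± 201 CPM and HSP90.2 320 ± 57.2 CPM, against 26.9 ± 4.63 CPM for the heat-inducible HSP90.1, and the chaperones of the endoplasmic reticulum, BIP2 and BIP1, averaged 84.1 and 81.1 CPM. All 6 ubiquitin loci were at 100 CPM or more, led by UBQ10 and UBQ5, which averaged 1651 ± 258 and 1255 ± 118 CPM, ahead of UBQ11 at 891 and UBQ3 at 429 CPM. The cell division genes CDKB1;1, PCNA1 and CDKA;1 averaged 7.14, 6.16 and 5.07 CPM, and CYCB1;1 averaged 0.441 CPM.

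Loci whose annotation note lists their molecular function as unknown held 9.51%, 9.37% and 9.45% of the counts, over 3419 loci of which 1798 were detected. AT5G39570 was among the highest of them, with 1576, 1516 and 1530 CPM. Some loci in this class, such as DRM1 and GRP-3, have a name but no stated function. Others have a described product, such as PSAG (photosystem I subunit G, 1452 CPM) and AT4G02450 (HSP20-like chaperone family, 1310 CPM). The share of the class is thus not that of uncharacterised genes.

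Few counts came from outside the nuclear protein-coding genes, although the mitochondrial locus ATMG00020 was among the highest loci in replicate 3. The libraries were selected for polyadenylated RNA, which works against transcripts without a poly(A) tail. Low counts of these classes therefore do not give their abundance in the seedling. The 133 chloroplast loci summed to 65.3, 107 and 132 CPM, and their highest members were ATCG00740 at 29.7, 29.7 and 30.5 CPM, ATCG01130 at 21.6, 35.6 and 23.7 CPM and ATCG01000 at 2.88, 8.30 and 13.8 CPM. These loci have no annotation in the reference used and are given by identifier. Loci of the pseudogene class, which in this reference includes transposable elements without saying which, summed to 486, 568 and 677 CPM over 3911 loci. Their highest members were SADHU1-1, noted as a non-coding retrotransposon, at 119, 193 and 233 CPM, Sadhu4-2 at 49.6, 61.4 and 70.8 CPM and AT3G17050 at 31.8, 56.6 and 63.3 CPM. Loci of the class ncRNA summed to 1149, 1083 and 1122 CPM over 170 loci. Mitochondrial loci varied more between libraries than these classes, summing to 298, 878 and 6229 CPM in replicates 1, 2 and 3. The locus ATMG00020 supplied most of this with 275, 806 and 5733 CPM, and in replicate 3 it stood at rank 6 of all loci. It was followed by ATMG01390 with 14.6, 55.6 and 466 CPM and ATMG01360 with 3.30, 5.72 and 9.24 CPM.

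The stability of the levels was read from the CV over the 3 libraries for the 8005 loci of at least 10 CPM. The median CV was 16.3%, with quartiles at 10.14% and 23.98%, and 93.3% of the loci differed by less than 2-fold between their highest and lowest library. Counting alone would give a median CV of 3.20%, and 96.99% of the loci had a CV above that of counting at their level. A CV of 50% or more was seen for 145 loci (1.81%). The median CV was 22.8% from 1 to 10 CPM, 16.8% from 10 to 100 CPM, 14.7% from 100 to 1000 CPM and 11.99% from 1000 to 10000 CPM. Counting alone gave 9.14%, 3.65%, 1.298% and 0.448% in these classes.

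**Figure D4:**
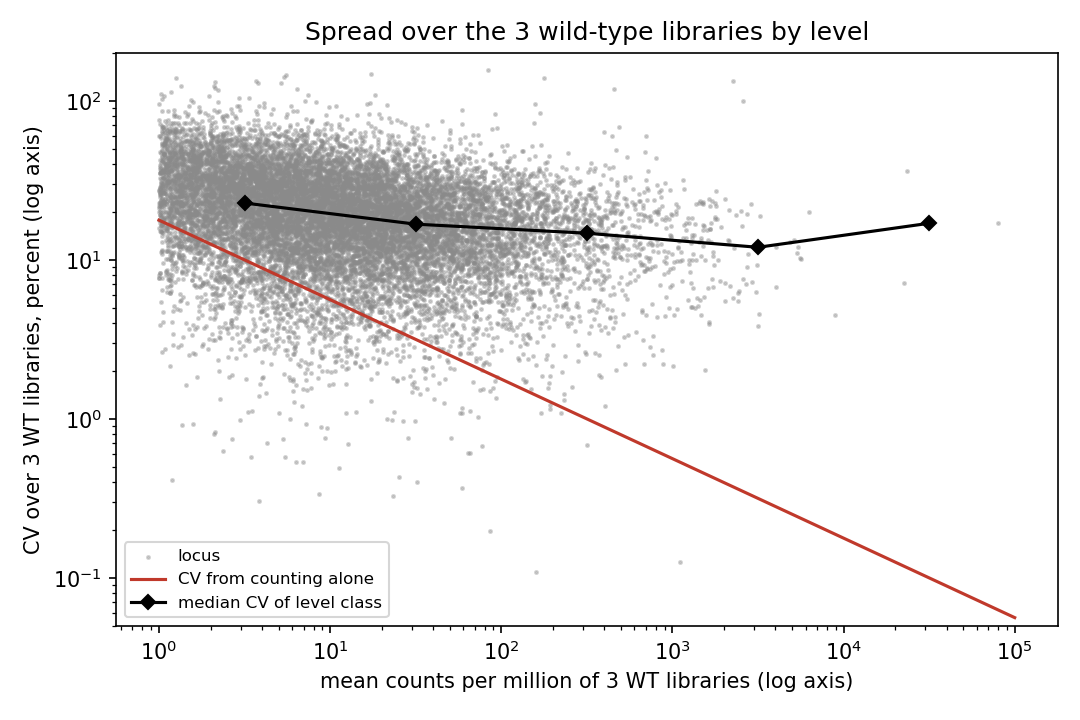
CV over the 3 WT libraries (percent, log axis) against the mean level (CPM, log axis) of each locus, with the CV that counting alone gives (line) and the median CV of each level class (diamonds). The median of all loci of at least 10 CPM is 16.3%, and counting gives 3.20% for the same loci.

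Replicate 1 stood apart from the others. Across the 8005 loci, the median absolute log2 ratio was 0.20 between replicates 2 and 3, against 0.29 between replicates 1 and 2 and 0.34 between replicates 1 and 3, and Spearman's rho across loci was 0.966, 0.943 and 0.925 in the same order (loci are not independent replicates). Without replicate 1 the median CV was 9.87%, against 16.6% without replicate 2 and 14.0% without replicate 3. These are CVs over 2 libraries and are not directly comparable with the 16.3% over 3. A CV of 50% or more was seen for 71 of 7769 loci without replicate 1. It was seen for 347 of 8069 loci without replicate 2 and 157 of 8154 without replicate 3, and for 145 of 8005 with all libraries. The reads of replicate 1 came from a GAIIx, whereas the other libraries were read on a HiSeq2000. Culture and instrument thus cannot be told apart for replicate 1. As a check for a library deposited more than once, chi-square over its degrees of freedom was 52.6 to 95.2 for the pairs of libraries, so no pair was a copy of another.

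The ranking of the highest loci was largely shared. The 3 libraries had 15 of their 20 highest loci in common, 80 of their 100 highest and 422 of their 500 highest. Between pairs, 88 of the 100 highest were shared by replicates 2 and 3, against 86 by replicates 1 and 2 and 85 by replicates 1 and 3.

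Among the 1524 loci of at least 100 CPM, the 10 lowest CVs ran between 0.108% and 1.43%. GCH, an enzyme of riboflavin synthesis, had 160.2, 160.1 and 160.4 CPM, and AT3G07480, a ferredoxin-like protein, had 1104, 1104 and 1102 CPM. Their CVs of 0.108% and 0.126% lay below the 1.404% and 0.535% that counting gives at these levels. The others were GF14 PHI (a 14-3-3 protein, 315.5 CPM), PAA2 (a proteasome α subunit, 171 CPM), RABA2c (a Rab GTPase, 224 CPM), AT4G11610 (a C2-domain protein, 192 CPM), GSTF9 (a glutathione transferase, 406 CPM), ATU2AF35A (a splicing factor subunit, 191 CPM), AT2G19730 (ribosomal L28e family, 232 CPM) and SIRANBP (a Ran-binding protein, 232 CPM). They were picked as the extreme of many loci, so their low CV is a description of these libraries. It also rests on scaling by the library total. TMM scaling would multiply the totals of replicates 1, 2 and 3 by 1.12, 0.966 and 0.923. The ranking by CV and the CVs of single loci, also those of the reference genes below, were not repeated with it. Genes commonly used as references in quantitative PCR were not among them, and TIP41, SAND, UBC21 and UBC9, with means under 100 CPM, could not be. PP2AA3 had a CV of 5.42% (116, 126 and 114 CPM). TIP41 had 5.39% at 5.87, 6.51 and 6.05 CPM, below the 7.17% that counting gives at its level. By contrast, ACT7, EF1A-4, UBQ10, UBC21, GAPC2, ACT2, YLS8 and UBC9 had CVs between 10.8% and 20.0%. SAND, at 2.88, 1.95 and 1.11 CPM, had a CV of 44.6%. The 8 reference loci at 10 CPM or more had a median CV of 16.7%, against 16.3% for all loci at that level.

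The 10 highest CVs above 100 CPM came from loci high in replicate 3 or in replicate 1. AT3G53990, of the adenine nucleotide α hydrolase-like superfamily, had 118, 170 and 1082 CPM, and AT1G62480, a vacuolar calcium-binding protein-like locus, had 903, 1323 and 5544 CPM. EBP, an ethylene-responsive transcription factor, had 46.8, 95.8 and 328 CPM, the kinase gene SNRK2.5 had 263, 327 and 865 CPM and the peroxidase AT2G37130 had 198, 311 and 683 CPM. With ATMG01390 and ATMG00020 these made 7 loci that were highest in replicate 3. The other 3 were the seed genes CRU3, M17 and CRA1, highest in replicate 1. Small nuclear RNAs followed replicate 3 too, since the snoRNA U3B had 2.07, 14.1 and 235 CPM and the snRNA loci together had 1.34, 5.94 and 29.9 CPM.

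A library was said to deviate at a locus when it was at least 2-fold above or below the mean of the remaining libraries. Replicate 1 was higher in this sense at 156 of 8005 loci (1.95%) and lower at 83 (1.04%). Replicate 2 was higher at 3 loci (0.0375%) and lower at 25 (0.312%), and replicate 3 was higher at 70 (0.874%) and lower at 64 (0.8%). The 3 loci higher in replicate 2 were PBB2 (a proteasome β subunit), SFGH (S-formylglutathione hydrolase) and CIP8 (a COP1-interacting protein), at 80.4, 41.4 and 33.7 CPM there. By level, the loci higher in replicate 1 were led by CRA1 and PIP2;1, and those lower in it by ICL and AT1G62480.

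The deviations were looked up by replicate number in the mutant libraries, which share no library with WT. Of the 70 loci higher in replicate 3 of WT, 66 were at least 2-fold higher in replicate 3 of pif3 as well, 63 in pif145 and 63 in pifq, where 1.29%, 0.887% and 1.01% of the 8005 loci met this rule. AT3G53990 had 143, 153 and 1117 CPM in pif3, 107, 135 and 923 CPM in pif145 and 107, 114 and 955 CPM in pifq, and ATMG00020 had 442, 680 and 6857 CPM in pif3, 303, 777 and 5737 CPM in pif145 and 468, 732 and 5915 CPM in pifq. Of the 83 loci lower in replicate 1 of WT, 50, 61 and 53 were lower in replicate 1 of pif3, pif145 and pifq, where 1.1%, 1.32% and 1.81% of all loci met the rule. ICL was lowest in replicate 1 of each mutant too, with 17305, 31018 and 26004 CPM in pif3, 12274, 26911 and 22335 CPM in pif145 and 11258, 24673 and 17452 CPM in pifq. The deviation of most of these loci in WT thus recurred at the same replicate number in the mutants.

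**Figure D5:**
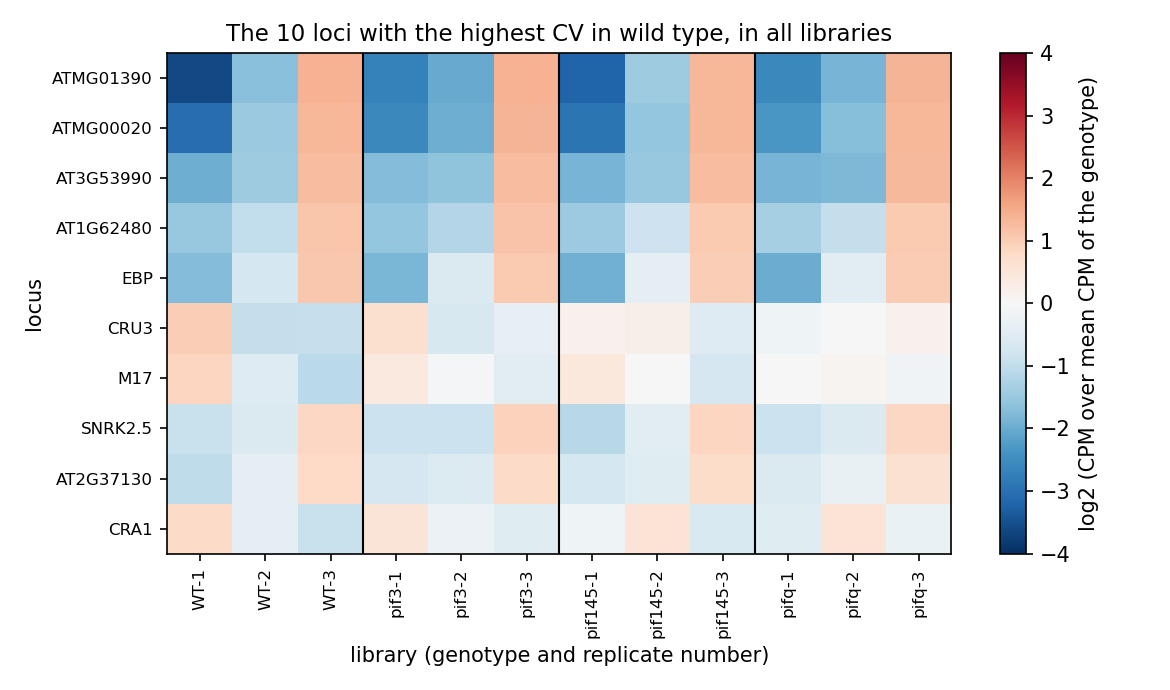
Log2 of the CPM over the mean CPM of the same genotype, for the 10 loci of at least 100 CPM with the highest CV in WT (rows) in the 12 libraries (columns, grouped by genotype). For ATMG00020, AT3G53990, AT1G62480 and 4 others replicate 3 is the highest library of each genotype, while CRU3, M17 and CRA1 are highest in replicate 1 of WT and pif3, and M17 also in replicate 1 of pif145.

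Fewer of the loci higher in replicate 1 or lower in replicate 3 recurred at 2-fold, though most moved in the same direction. Of the 156 loci higher in replicate 1 of WT, 62, 85 and 48 were higher in replicate 1 of pif3, pif145 and pifq, where 1.77%, 3.12% and 1.8% of all loci met the rule. Of the 64 lower in replicate 3 of WT, 18, 10 and 13 were lower in replicate 3 of pif3, pif145 and pifq, where 0.662%, 0.45% and 0.787% of all loci met it. Replicate 1 of pif3, pif145 and pifq was above the mean of its other libraries by any amount at 151, 141 and 130 of the 156 loci, against 58.6%, 61.1% and 51.3% of all loci. Replicate 3 was below it by any amount at 62, 63 and 58 of the 64 loci, against 64.9%, 66.1% and 63.6% of all loci. For replicate 2, 0, 1 and 2 of the 3 higher loci recurred (0.125%, 0.162% and 0.512% of all loci) and 16, 15 and 15 of the 25 lower ones (0.6%, 0.737% and 0.475%) in pif3, pif145 and pifq. The seed genes did not recur alike, since CRA1 had 850, 500 and 422 CPM in pif3 but 45.8, 75.2 and 34.0 CPM in pif145 and 41.6, 84.7 and 48.0 CPM in pifq, with replicate 2 the highest in pif145 and pifq. For M17, replicate 1 was the highest in pif3 and pif145 but not in pifq, with 171, 124 and 94.6 CPM in pif3, 24.7, 18.6 and 11.5 CPM in pif145 and 20.2, 21.7 and 18.03 CPM in pifq. For CRU3, the values were 191, 78.1 and 97.5 CPM in pif3, 21.2, 22.2 and 13.2 CPM in pif145 and 21.7, 23.9 and 27.1 CPM in pifq. The part of library preparation, sequencing run and seedling batch in these patterns was not tested.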

How the data were processed

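The authors sequenced polyadenylated 3′-end fragments with a directional protocol, used 36-base reads, and aligned them with Bowtie allowing 0 mismatches to TAIR9 representative transcripts (study methods) or TAIR10 (submitters' notes, which name Bowtie 0.12.7 and CASAVA 1.7.0). The deposited values are raw counts of uniquely placed coding-strand reads within 500 bases of the 3′ end, 1 table per genotype. The tables name loci only, and 0 rows named none. Symbols, notes and coordinates came from TAIR10.1, which held 32835 of the 33602 loci (97.7%), so unique-window shares and annotated starts may differ from the authors' transcripts.

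Counts were divided by the library total to give CPM, and means, SDs, CVs and ranks were computed over the 3 WT libraries in Python 3.11.15 with pandas 2.3.3 and NumPy 2.4.6. No test between groups was run, since a single group has no contrast; chi-square values only checked for copied libraries. Intervals and the limit for a count of 0 (3 counts) cover counting error only, because reads carried no molecular identifiers. Alternatives were TMM scaling (edgeR), DESeq2 size factors, other level limits and leaving out each library. CV and deviation calculations were tested on simulated data.

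Named loci were the 20 highest, the 10 highest and 10 lowest CVs at 100 CPM or more, the 4 highest members of each list, all photoreceptors, PIFs and reference genes, and the 3 highest chloroplast and mitochondrial loci, and the 3 highest pseudogene loci in place of transposable elements. One member of a list is not reported here. Other loci were named after their values were seen. The libraries, the 28 gene lists and the rules were chosen with earlier results of these data known.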

Additional observations from a re-analysis of the deposited data

How the results depend on the processing

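The number of loci detected was 14880 and ranged between 13000 (at least 2 CPM) and 17135 (at least 10 counts). The number of loci holding 50% of counts was 294, and 265 to 316 when a library was left out. The overlap of the 100 highest loci was 80.0%, and 85.0% to 88.0% for the remaining pair when a library was left out. The median CV was 16.3% over 3 libraries. Over the remaining 2 it lay between 9.87% and 16.6% when a library was left out, the lower value without replicate 1. TMM scaling gave 15.0% and DESeq2 size factors 15.1%. Without the 20 highest loci, 24 of 28 list shares moved by more than their SD over libraries. TMM scaling moved 2 of 290 mean locus levels by more than their SD, and division by the unique share of the window moved 14 of 283. The TMM factors were 1.12, 0.966 and 0.923 for replicates 1, 2 and 3, so their shifts largely cancel in a mean. The few means moved therefore do not speak for the values of single libraries. Means over 3 values cannot move by more than 1 SD when a library is left out. No paired analysis was possible because the results come from no test between groups. Libraries of the same number were compared across genotypes only for the recurrence of deviations. Levels of loci with shared windows are lower limits. The counts of loci of CV at least 50% and of loci within 2-fold without each library were chosen after seeing the data. The first was 145 with all libraries and 71 to 347 when a library was left out. The second was 7470 with all libraries, and 7618 to 7934 when a library was left out. The loci of at least 10 CPM numbered 8005 with all libraries, and 7769 to 8154 when a library was left out.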
